A study of Mus musculus with 8 samples.

Results

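The expression of 10 prostaglandin synthesis and receptor genes was described in mouse primordial follicles. The genes were Ptgs1, Ptgs2, Ptges, Ptges2, Ptges3, Ptgis, Hpgd, Ptger2, Ptger4 and Ptgfr, out of 26586 gene symbols in the count table. They were chosen by pathway membership with the comparison of mito-supplemented and control samples already known, and Ptgs2 had passed a test in that comparison. Their differences between groups are therefore given as a description. All samples were primordial follicles taken on postnatal day 3 from C57Bl/6 x CBA mice. The 4 mito-supplemented samples came from third-generation descendants of founders whose oocytes had received mitochondria from egg precursor cells by injection together with a spermatozoon, and the 4 control samples came from colony mice. The founders thus differed from colony mice by the added mitochondria and also by superovulation, the injection, embryo culture, vitrification and transfer to surrogates, and the effects of these cannot be told apart here. The follicles were picked from enzyme-digested ovaries, and their RNA was amplified before sequencing. Each sample is labelled as a biological replicate, but how the samples fall on animals or litters is not stated in the labels. In each group the sample codes begin with 1 of 2 prefixes, whose meaning is not given, so that p values measure the spread between these samples.

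Prostaglandins are short-lived lipid signals made from arachidonic acid. The cyclooxygenases Ptgs1 and Ptgs2 make the common precursor, terminal synthases turn it into single prostaglandins, and Hpgd inactivates the products. In the adult ovary, Ptgs2 is induced in granulosa cells by the ovulatory surge, and signalling of its product prostaglandin E2 through Ptger2 is needed for expansion of the cumulus and ovulation. Primordial follicles are the resting stage, long before that event.

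The values are counts per gene. They summed to 17658559, 13917412, 18219362 and 10370045 for control replicates 1 to 4. The sums of the 4 mito-supplemented replicates were 19760763, 13370911, 16116434 and 13276462. Control replicate 4 stood apart, as the rRNA genes Rnr1 and Rnr2 took 74.0% of its counts, and 2559876 counts lay outside Rnr1, Rnr2, Rn45s and Rn18s. In the other 7 libraries the share of Rnr1 and Rnr2 lay between 14.9% and 44.3%. Another difference cut across the groups. The red-cell gene Slc4a1, which encodes the anion exchanger of the erythrocyte membrane, was at 2504 and 1704 normalised counts per 1000000 (CPM) in control replicates 2 and 3 and at 2998 CPM in mito-supplemented replicate 1. It was at 47.6 CPM or less in the other 5 libraries. The fold changes of the members tested are given with and without these 3 libraries, whereas the marker lists, the other pathway genes and the correlations are given with all 8 libraries.

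The follicle label was checked against marker genes. Over all libraries together, all 10 oocyte markers had counts. Their summed level ran from 51.0 CPM in mito-supplemented replicate 4 to 1576 CPM in control replicate 1, and their most abundant gene by CPM was Kit. All 10 granulosa markers were also found, with sums between 72.6 and 390.5 CPM and Kitl as the most abundant gene. Marker sums of both cell types of the follicle were thus above 0 in every library, in very different amounts. Kit is also expressed by mast cells, and markers of cells outside the follicle, given below, were present too, with stroma sums between 425.0 and 2876 CPM.

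Ptgs2, the inducible cyclooxygenase, showed the clearest separation of the groups. It had 1, 15, 9 and 0 counts in control replicates 1 to 4 and 154, 35, 197 and 303 counts in mito-supplemented replicates 1 to 4. In CPM these were 0.041, 1.19, 0.515 and 0 against 7.47, 2.42, 8.94 and 21.1. The groups did not overlap, and the lowest mito-supplemented library was 2.04-fold above the highest control. The 0 counts in control replicate 4 allow a level of up to 0.592 CPM, which is below all mito-supplemented values. Such limits use 3 counts, and like the intervals given later they reflect counting error alone, as reads copied by amplification do not stand for separate molecules. Control libraries averaged 0.436 ± 0.554 CPM (SD, n = 4), whereas the mito-supplemented mean was 9.98 ± 7.90 CPM (SD, n = 4), a ratio of 22.9. Single libraries moved this size, since the log2 fold change fell to 3.8 when mito-supplemented replicate 4 was omitted and rose to 5.5 when control replicate 2 was. In these bulk samples, more cells that transcribe a gene and more RNA per cell cannot be told apart.

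**Figure D1:**
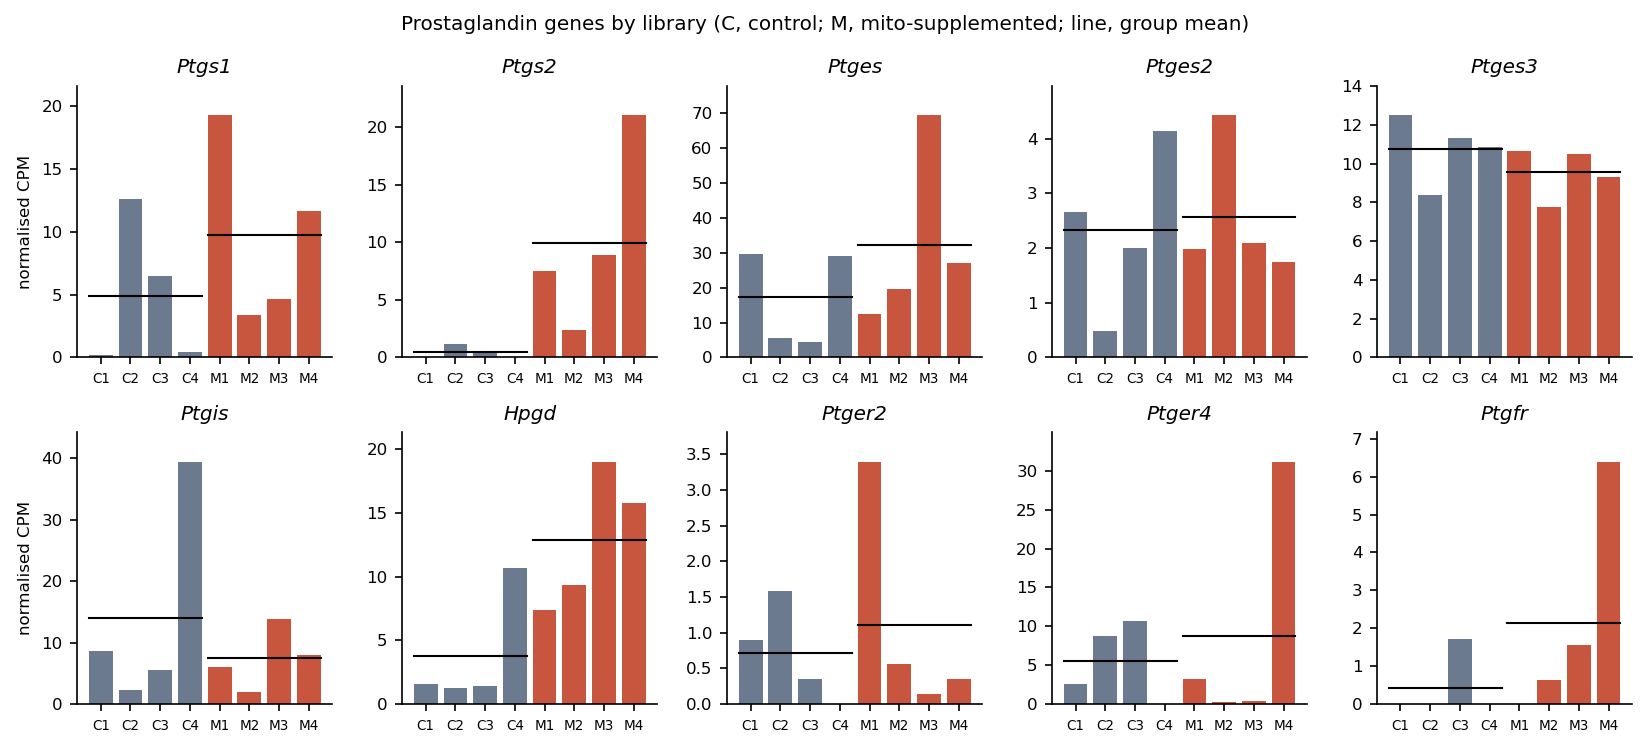
Level of each prostaglandin gene in normalised CPM (vertical axis, own scale per gene) in the 4 control (C) and 4 mito-supplemented (M) libraries, with a line at each group mean. Ptgs2 lies between 2.42 and 21.1 CPM in mito-supplemented libraries and at or below 1.19 CPM in controls, while the other 9 genes overlap between groups.

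Ptgs2 lies on chromosome 1 (GRCm38, chr1:150100031-150108227, plus strand) and its exons overlap no other gene annotated in GENCODE M21. Its start region is shown because Ptgs2 is the gene whose groups separate, beside that of Ptgs1, the other cyclooxygenase, and that of Hpgd, which has the largest difference among the members with at least 10 counts in every library. The windows run from 120 bases before to 30 bases after the RefSeq start on GRCm38.p6, namely chr1:150099911-150100060 for Ptgs2, chr2:36230306-36230455 for Ptgs1 and chr8:56294432-56294581 for Hpgd, all on the plus strand. Capitals mark the motifs found.

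Ptgs2: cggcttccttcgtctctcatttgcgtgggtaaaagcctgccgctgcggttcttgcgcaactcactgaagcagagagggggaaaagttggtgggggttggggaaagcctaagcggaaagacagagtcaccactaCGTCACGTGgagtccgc

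Ptgs1: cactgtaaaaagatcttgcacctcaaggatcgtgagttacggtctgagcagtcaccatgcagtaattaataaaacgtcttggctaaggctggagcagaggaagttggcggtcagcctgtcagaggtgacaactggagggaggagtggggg

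Hpgd: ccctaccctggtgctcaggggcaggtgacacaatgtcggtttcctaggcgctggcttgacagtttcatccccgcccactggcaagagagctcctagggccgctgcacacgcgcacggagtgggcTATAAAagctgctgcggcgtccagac

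The 5 motifs searched on both strands were CGTCA (part of the cyclic AMP response element), CACGTG (an E-box), TATAAA (the letters of the TATA box), TGANTCA (the AP-1 site) and CCAAT (the CCAAT box). The Ptgs2 window held CGTCA, which begins at position 14 (the start base being 1), and CACGTG, which begins at position 17 and shares letters with the first. Among 32851 windows of the same length, 14.0% held CGTCA and 4.47% held CACGTG. The Hpgd window held TATAAA, found in 7.16% of all windows, at position 5 from the RefSeq start, which is before the start of Hpgd in GENCODE M21 (56294585), and the Ptgs1 window held none of the 5. Of the other members, Ptges2 had CACGTG, Ptges3 had CGTCA and Ptger4 had CCAAT, which 24.0% of windows hold. No member window had TGANTCA, which 4.16% of windows hold. A window was found for 9 of the 10 genes, with Ptgis unmatched. These matches describe the letters only.

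Ptgs1, the cyclooxygenase that is made constitutively in many cells and in platelets, followed another pattern. It was at 0.205, 12.6, 6.52 and 0.395 CPM in control replicates 1 to 4 and at 19.3, 3.39, 4.63 and 11.7 CPM in mito-supplemented replicates 1 to 4. The groups overlapped, and control replicates 1 and 4 were far below all other libraries, with 5 and 2 counts. Ptgs1 was high in the 3 libraries with high Slc4a1, where the platelet and megakaryocyte markers summed to 26.9, 11.3 and 21.5 CPM against 3.75 CPM or less elsewhere. The most abundant platelet gene was Gp9, a platelet membrane glycoprotein, and Ppbp was at 0 in all libraries. Mito-supplemented replicate 4 was also high in Ptgs1, at a platelet sum of 0.348 CPM, and had the highest sum of mast cell markers, at 173.8 CPM, led by the mast cell protease Cpa3, with Fcer1a at 0 in all libraries. Without the 3 libraries high in Slc4a1 the log2 fold change of Ptgs1 went from 0.98 to 4.53, with 5 and 2 counts in the controls that were left. The part of these cells in the Ptgs1 level was not tested.

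The weight of the 2 cyclooxygenases was also compared within libraries, which does not depend on the scaling between libraries. Ptgs2 made up 8.62% (95% exact binomial interval 4.91% to 13.8%) of the 174 cyclooxygenase counts in control replicate 2 and 7.32% (3.40% to 13.4%) of the 123 in control replicate 3. In mito-supplemented replicates 1 to 4 the share was 27.9% (24.2% to 31.8%), 41.7% (31.0% to 52.9%), 65.9% (60.2% to 71.2%) and 64.3% (59.8% to 68.7%). Control replicates 1 and 4 had only 6 and 2 such counts, so their intervals, 0.421% to 64.1% and 0% to 84.2%, place no useful limit on the share. Within the 3 libraries high in Slc4a1, the share was thus lower in both controls than in the mito-supplemented library. That mito-supplemented library also had the highest sum of macrophage and leukocyte markers, 725.7 CPM against 133.7 and 113.6 CPM in the 2 controls. The part of such cells in the share was not tested.

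**Figure D2:**
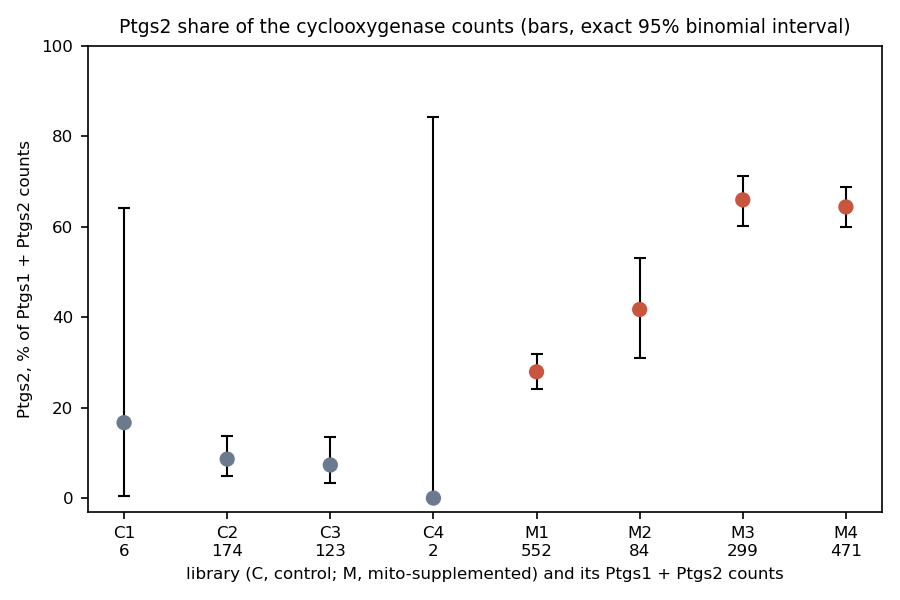
Share of Ptgs2 among the counts of Ptgs1 and Ptgs2 together, in percent, for each control (C) and mito-supplemented (M) library, with exact 95% binomial intervals and the number of counts under each label. The mito-supplemented libraries lie between 27.9% and 65.9%, above control replicates 2 and 3, whereas control replicates 1 and 4 rest on 6 and 2 counts.

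Ptges is the inducible microsomal prostaglandin E synthase that commonly works with Ptgs2. It was at 29.6, 5.55, 4.46 and 29.2 CPM in control replicates 1 to 4 and at 12.5, 19.7, 69.5 and 27.0 CPM in mito-supplemented replicates 1 to 4. The groups overlapped, and the lowest values were in the 3 libraries high in Slc4a1. Its highest value was in mito-supplemented replicate 3, which also had the highest sum of stroma markers, 2876 CPM, a list led by the collagen gene Col3a1. Control replicate 1, at 29.6 CPM of Ptges, had the lowest stroma sum, 425.0 CPM. The part of stroma in the Ptges level was not tested.

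Ptges3, also known as the HSP90 co-chaperone p23, was the steadiest of the 10 genes. It ran from 7.76 to 12.5 CPM over the 8 libraries, with a coefficient of variation of 16.0% in controls and 14.0% in mito-supplemented samples. For the other 9 genes this coefficient was between 42.3% and 200%. Ptges2, a membrane-associated synthase, was low throughout, between 0.476 and 4.43 CPM, with 6 to 65 counts a library and mean levels of 2.32 ± 1.52 CPM for control and 2.56 ± 1.26 CPM for mito-supplemented libraries (SD, n = 4 each).

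Ptgis, which makes prostacyclin and is typical of vascular and stromal cells, was at 8.70, 2.30, 5.49 and 39.5 CPM in control replicates 1 to 4 and at 5.97, 1.94, 13.9 and 7.93 CPM in mito-supplemented replicates 1 to 4. The high value of control replicate 4 lay far from the rest, and without that library the log2 fold change turned from -0.90 to 0.46. That library also had the highest stroma sum among controls, 2606 CPM, and the highest control sum of smooth muscle and pericyte markers, 249.5 CPM, led by the smooth muscle myosin gene Myh11. Mito-supplemented replicate 4 had 2459 and 329.9 CPM of these 2 lists at 7.93 CPM of Ptgis, and mito-supplemented replicate 3 had 2876 and 103.0 CPM at 13.9 CPM. The part of these cells in the Ptgis level was not tested.

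Hpgd, the dehydrogenase that inactivates prostaglandins, was at 1.60, 1.27, 1.43 and 10.7 CPM in control replicates 1 to 4 and at 7.37, 9.35, 19.1 and 15.8 CPM in mito-supplemented replicates 1 to 4. In normalised CPM, only control replicate 4 reached the range of the mito-supplemented libraries. The counts behind these levels were 39, 16, 25 and 54 against 152, 135, 420 and 227. The means were 3.74 ± 4.61 CPM (SD, n = 4) and 12.9 ± 5.46 CPM (SD, n = 4), a ratio of 3.45. Without control replicate 4 the log2 fold change went from 1.82 to 3.18 and the likelihood ratio test called the gene (edgeR, adjusted p = 0.0044), as it did 2.25% of all genes in that fit, and without the 3 libraries high in Slc4a1 it was 1.30.

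Surface epithelium, endothelial and stroma markers were, like Hpgd, lowest in control replicates 1 to 3. Among mito-supplemented libraries Hpgd and stroma markers were highest in replicate 3, and surface epithelium and endothelial markers in replicate 2. The surface epithelium sums were 130.7, 76.2, 58.0 and 504.7 CPM in control replicates 1 to 4. They were 451.1, 1176, 524.8 and 889.7 CPM in mito-supplemented replicates 1 to 4. The most abundant gene of this list was Lgr5, an R-spondin receptor found on the ovarian surface. All 10 genes of this list had log2 fold changes above 0, with a median of 1.79, 7 of them at an unadjusted p under 0.05, whereas 44.9% of all genes lay above 0 and 5.31% were higher at that p. The part of surface epithelium, endothelium and stroma in the levels of Hpgd and Ptgs2 was not tested.

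The receptors were near the limit of detection in many libraries. Ptger4, a prostaglandin E2 receptor that raises cyclic AMP, was at 2.58, 8.80, 10.7 and 0 CPM in control replicates 1 to 4 and at 3.15, 0.208, 0.363 and 31.2 CPM in mito-supplemented replicates 1 to 4. Mito-supplemented replicate 4 decided the direction, since the log2 fold change of 0.65 became -2.13 without it. Exons of Ptger4 overlap those of genes on the opposite strand, among them Ttc33, by up to 1015 bases, and since no strand setting is stated for the counting, reads from the 2 strands cannot be told apart.

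Ptger2, the related receptor needed for cumulus expansion, had 22, 20, 6 and 0 counts in controls and 70, 8, 3 and 5 in mito-supplemented samples, and was the only member that did not pass the filter on low counts. Its highest level, 3.40 CPM, was in mito-supplemented replicate 1. Ptgfr, the receptor for prostaglandin F2alpha, had no counts in 4 libraries, and 30 counts in control replicate 3 against 9, 34 and 92 in mito-supplemented replicates 2, 3 and 4. A difference in Ptgfr therefore rests on few libraries. Exons of Ptgs1, Ptgis, Ptger2 and Ptgfr also overlap genes on the opposite strand, by 148, 156, 246 and 329 bases at most.

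The comparison between groups was fitted over all 13873 genes that passed the filter, with edgeR's quasi-likelihood test and Benjamini-Hochberg adjustment, and calls needed both an adjusted p under 0.05 and a difference of at least 2-fold. Of the 9 members tested 0 were called, as were 0% of all genes (lowest adjusted p 0.418). At an unadjusted p under 0.05 there were 2 members, Ptgs2 and Hpgd, both higher in mito-supplemented samples, against 7.71% of all genes in either direction (1069) and 5.31% in that direction. The likelihood ratio test called 1 member, Ptgs2, against 0.418% of all genes (58) in either direction and 0.411% in the higher direction. DESeq2 called 1 member, Ptgs2, against 1.02% of all genes (141), and limma-voom with sample quality weights 3 members, Ptgs2, Ptges and Hpgd, against 18.6% of all genes (2578). Ptgs2 was the only 1 of the 9 members whose groups did not overlap in normalised CPM, and 3.00% of all genes had every mito-supplemented library above every control. As the members were chosen with this contrast known, nothing is read from these counts.

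The log2 fold change of Ptgs2 was 4.44 ± 1.20 (SE), with an adjusted p of 0.54 by edgeR's quasi-likelihood test, 0.039 by its likelihood ratio test, 0.0060 by DESeq2 and 0.033 by limma-voom. All 4 mito-supplemented libraries showed its direction. When libraries were left out in turn, the likelihood ratio test called it without control replicates 2 or 4 or mito-supplemented replicate 1 (adjusted p = 0.029, 0.035 and 0.024, edgeR). Those fits called 22 of 14481, 331 of 14743 and 387 of 14251 genes, beside 58 of 13873 with all libraries. The test did not call Ptgs2 without control replicate 1 or 3 (adjusted p = 0.063 and 0.14, edgeR) or without mito-supplemented replicate 2, 3 or 4 (adjusted p = 0.054, 0.11 and 0.25, edgeR), at log2 fold changes of 4.0, 4.5, 4.8, 4.5 and 3.8 in that order (quasi-likelihood fit). In the same order, the likelihood ratio test called 60, 60, 13, 49 and 26 genes in these fits. Without the 3 libraries high in Slc4a1 the fitted value was 8.13 and the likelihood ratio test called the gene (edgeR, adjusted p = 0.0036), but the 2 controls left held 1 and 0 counts, so that this value depends on the prior count. The likelihood ratio test called 175 of 14568 genes in that setting. Between the 3 libraries high in Slc4a1, Ptgs2 was also higher in mito-supplemented replicate 1 than in control replicates 2 and 3, at 7.47 against 1.19 and 0.515 CPM. These 3 libraries differed in other cells too. Macrophage and leukocyte markers summed to 725.7 against 133.7 and 113.6 CPM, and mast cell markers to 71.2 against 47.9 and 13.1 CPM. The part of these cells in the Ptgs2 level was not tested.

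Of the other members, Hpgd had a log2 fold change of 1.82 ± 0.81 (SE), Ptgs1 of 0.98 ± 1.13, Ptges of 0.91 ± 0.75 and Ptges2 of 0.15 ± 0.83. For Ptger4 the value was 0.65 ± 1.51 and for Ptgfr 2.22 ± 1.89, whereas Ptges3 and Ptgis were at -0.17 ± 0.42 and -0.90 ± 0.89. With 1 library left out Ptgs1 ran from 0.41 to 2.01, Ptges fell to 0.24 without mito-supplemented replicate 3, and Ptgfr fell to 0.71 without mito-supplemented replicate 4. Without the 3 libraries high in Slc4a1 Ptges was at 0.42, Ptges2 at -0.29, Ptges3 at -0.33, Ptgis at -1.58, Ptger4 at 2.95 and Ptgfr at 8.53, the last with 0 counts in both controls that were left. The median over the 9 genes was 0.91, beside -0.098 over all genes tested. With library size as the only scaling the median of all genes was 0.17, and Ptges3 then turned to 0.096. Hpgd was at 2.62 and Ptgis at -0.10 with that scaling. Ptges and Hpgd passed the thresholds in limma-voom, at log2 fold changes of 2.65 and 3.10 (adjusted p = 0.026 and 0.014). That fit called 18.6% of all genes. Hpgd also passed in the likelihood ratio test without control replicate 4, which called 2.25% of all genes. The limma-voom fit weighted control replicates 2 and 3 by 1.83 and 3.53 and control replicates 1 and 4 by 0.231 and 0.538. Ptges was at 29.6 and 29.2 CPM in control replicates 1 and 4, against 5.55 and 4.46 CPM in 2 and 3. Hpgd was well above the other controls in control replicate 4 alone (10.7 CPM), with 1.60 CPM in replicate 1 against 1.27 and 1.43 CPM. The limma-voom weights for mito-supplemented replicates 1 to 4 were 0.514, 2.27, 2.58 and 0.414, with both genes highest in replicate 3.

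**Figure D3:**
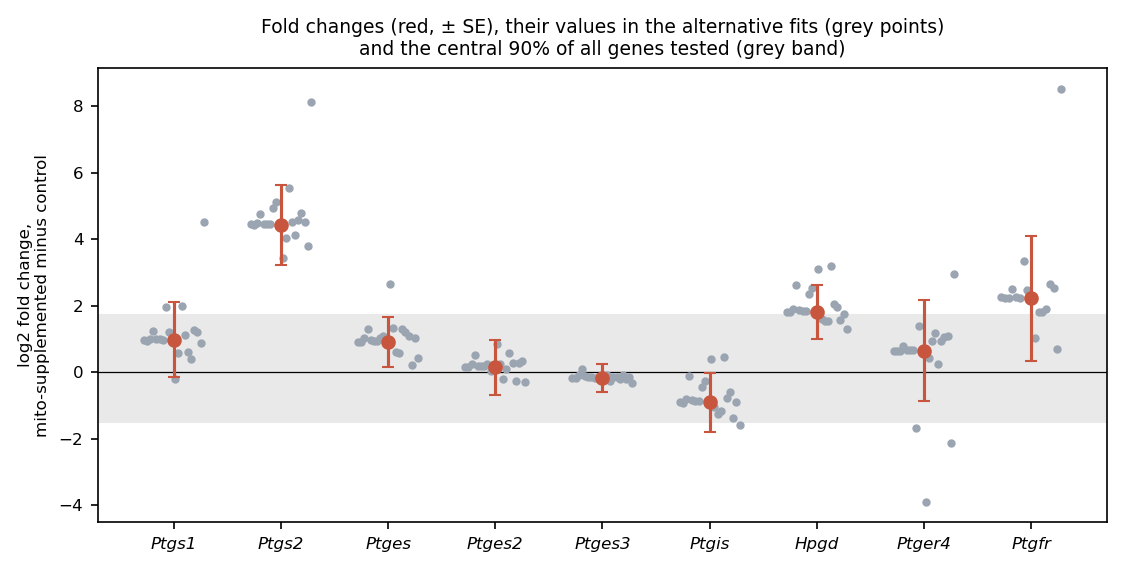
Log2 fold change, mito-supplemented minus control, of the 9 genes tested (red points, bars ± SE) with the values from the alternative fits (grey points) and a grey band for the central 90% of all genes tested, from -1.50 to 1.74. Ptgs2 stays between 3.43 and 8.13 in all fits, while Ptgs1, Ptges2, Ptges3, Ptgis and Ptger4 cross 0 in at least 1 fit.

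Levels were compared between genes per kilobase of annotated exon. By the median over the 8 libraries the order was Ptges (5.93 CPM per kb), Hpgd (4.97), Ptges3 (4.77), Ptgis (2.71), Ptgs1 (1.44), Ptger4 (0.432), Ptges2 (0.404), Ptgs2 (0.395), Ptger2 (0.0868) and Ptgfr (0.0460). None of the 9 neighbouring pairs was shown to differ beyond their spread over libraries (exact paired permutation test, two-sided, 8 libraries, adjusted p between 0.42 and 0.98 over 9 pairs, with 0.0078 the smallest p the test can give). As the pairs were neighbours in the order of the same values, with both groups pooled, nothing is read from this test. The order was not the same in each group. Hpgd had a median of 0.90 CPM per kb in controls, below Ptges3 (5.0), Ptges (4.4) and Ptgis (2.8), and the highest median, 7.47 CPM per kb, in mito-supplemented samples. The median of Ptgs2 was 0.0607 CPM per kb in controls and 1.79 CPM per kb in mito-supplemented samples, which places it between Ptgfr and Ptger2 in the former and between Ptgs1 and Ptges2 in the latter.

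**Figure D4:**
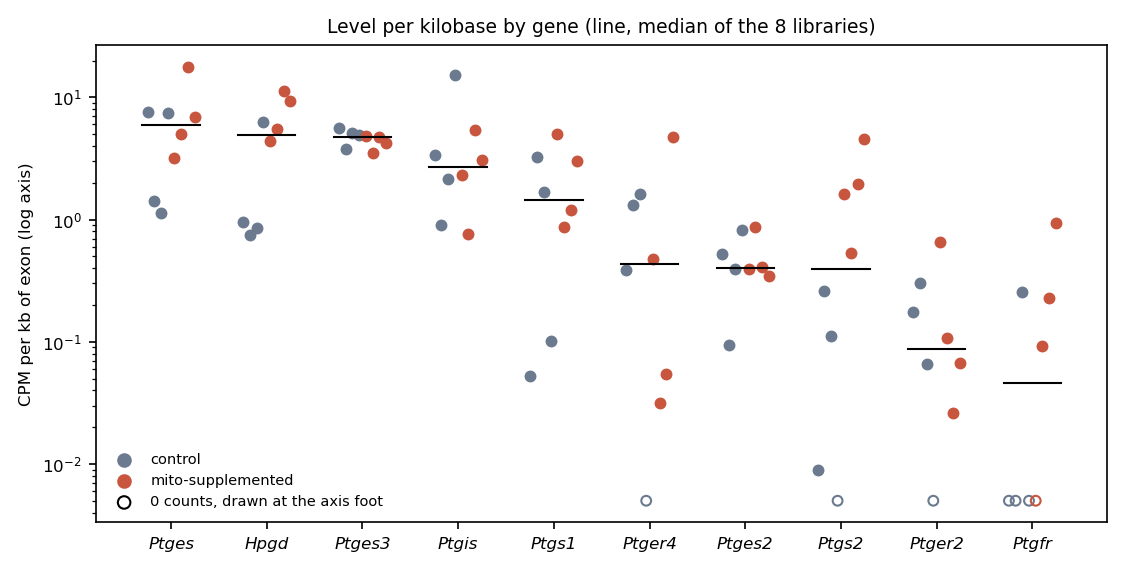
Level of each gene in CPM per kilobase of exon (log axis) in control and mito-supplemented libraries, ordered by the median of the 8 libraries (line), with open points at the foot of the axis for libraries with 0 counts. Ptges3 has the narrowest range, 3.50 to 5.64, and Ptgs2 spans from 0 to 4.60.

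Other genes of the pathway were taken from 8 lists of 69 genes, of which 47 were tested. The likelihood ratio test called 1 of them, Fos, beside 0.418% of all genes. The quasi-likelihood test called 0 of them, beside 0% of all genes. Their median log2 fold change was 0.24, beside -0.098 over all genes, and 28 of the 47 lay above 0, as did 44.9% of all genes. At an unadjusted p under 0.05 in the quasi-likelihood test there were 8 higher and 0 lower, or 17.0% of the 47, beside 7.71% of all genes in either direction and 5.31% in the higher direction. As the lists were chosen with earlier results of these data known, nothing is read from these counts.

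The list of transcription factors that act upstream of Ptgs2 held 4 of these 8 genes. Of its 10 genes, namely 9 factors and the NF-kappaB inhibitor Nfkbia, all tested, 9 had values above 0 and the median was 1.29. Fos, an immediate-early subunit of AP-1, was at 10.3, 11.3, 43.4 and 13.4 CPM in control replicates 1 to 4 and at 63.6, 129.2, 212.9 and 292.3 CPM in mito-supplemented replicates 1 to 4, with no overlap between the groups. Its log2 fold change was 3.15 ± 0.64 (SE), with an adjusted p of 0.0041 by edgeR's likelihood ratio test and of 0.44 by its quasi-likelihood test. The likelihood ratio test called it in 16 of 17 alternatives, and not without control replicate 2 (edgeR, adjusted p = 0.064). Jun, the partner of Fos and the most abundant gene of the list, had a value of 1.36 ± 0.63, and Creb1 had the lowest of the list, at -0.24 ± 0.33. The other 3 at an unadjusted p under 0.05, named after their values were seen, were Nfkb1 (1.23 ± 0.40), Cebpd (2.25 ± 0.95) and Junb (1.45 ± 0.61).

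Genes of the response to prostaglandin E2 and of ovulation were mostly too low to test, with 4 of 10 tested, all above 0. Adamts1, a matrix protease of the ovulating follicle, was the most abundant. Btc, an epidermal growth factor family ligand, had the highest value of the list, 2.92 ± 0.91 (SE), with 0.288 ± 0.135 CPM in control against 2.15 ± 1.16 CPM in mito-supplemented libraries (SD, n = 4 each), and Has2, which makes the hyaluronan of the cumulus matrix, the lowest, 0.40 ± 1.52. In the cyclic AMP arm, 5 of 9 genes lay above 0 with a median of 0.0036. Adcy3 had the highest value, 1.22 ± 0.52, and Adcy7 the lowest, -1.08 ± 0.84, both adenylyl cyclases, and Prkar1a, a regulatory subunit of protein kinase A, the highest level.

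For the genes of supply and disposal the counts above 0 are given by list, and no test of direction was run. In substrate release, 2 of 8 tested lay above 0, with a median of -0.53, Pla2g5 highest (1.33 ± 0.83, SE), Pla2g6 lowest (-0.88 ± 0.57) and Plaa most abundant. Of the other terminal synthases, 2 of 7 tested lay above 0, with Gstm2 both most abundant and highest (1.21 ± 0.37) and Akr1c18, which degrades progesterone, lowest (-1.94 ± 1.43). In transport and breakdown, 3 of 5 lay above 0, from Abcc4, an exporter of prostaglandins (-1.68 ± 1.00), to Slco2a1, their uptake carrier (0.92 ± 1.28). Of the other prostanoid receptors, Ptger1 (0.15 ± 0.74) and Ptger3 (-0.17 ± 1.26) were tested and the remaining 4 were too low. In the leukotriene branch 3 of 10 were tested, with Lta4h most abundant and highest (0.61 ± 0.64) and Alox5, the 5-lipoxygenase, lowest (-2.74 ± 1.24). None of these genes was called by the quasi-likelihood or the likelihood ratio test.

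The genes most like Ptgs2 were sought among 13832 other genes tested with a mean of at least 10 counts, by correlation of log2 CPM over the 8 libraries. The closest were Hk2 (Pearson r = 0.99, Spearman rho = 0.95), Rraga (0.96, 0.93), Atg16l2 (0.95, 0.98), Nfkb1 (0.95, 0.88) and Gys1 (0.94, 0.93), and 34 genes reached r of 0.9. Hk2, which encodes a hexokinase, was at 2.17, 3.88, 3.89 and 2.17 CPM in control replicates 1 to 4 and at 10.2, 6.72, 9.89 and 13.8 CPM in mito-supplemented replicates 1 to 4. Part of such likeness is the group difference that both genes share. After the group means were subtracted, the closest were Nostrin (0.98, 0.98), Arhgap27 (0.98, 0.98), 1700052N19Rik (0.97, 0.95), Hk2 (0.97, 0.90) and Cdk19 (0.97, 0.90), so that Hk2 was named by both measures. Like Ptgs2, all of these were higher in control replicates 2 and 3, which are high in Slc4a1, than in control replicates 1 and 4. Among mito-supplemented libraries all of them were highest in replicate 4, which is low in Slc4a1. Among the 8 other members tested, Ptgs1 was the most like Ptgs2 in both ways (r = 0.79, and 0.85 within groups), with Ptger4 at 0.36 and 0.81. The lowest values were those of Ptges3 over the 8 libraries (-0.44) and of Ptges2 within groups (-0.90). These correlations are descriptions over 8 libraries that differ in depth and cell makeup.

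**Figure D5:**
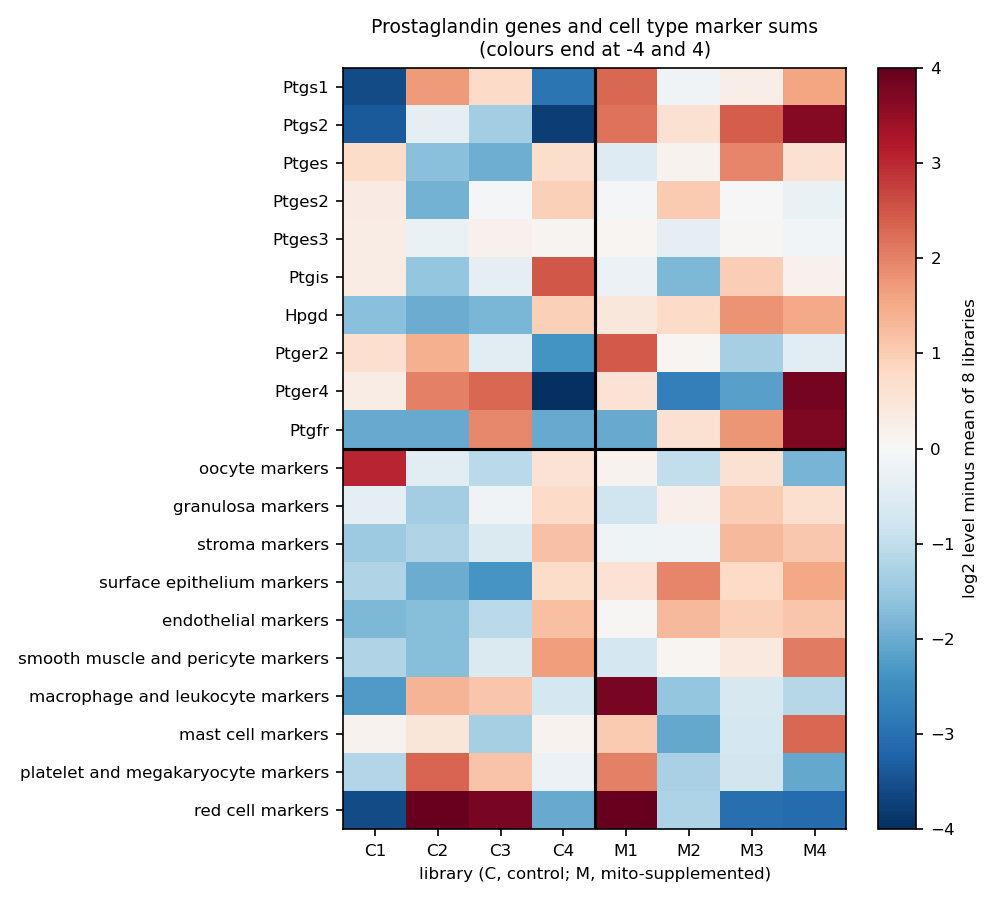
Log2 level of each prostaglandin gene (upper rows) and of the summed CPM of each cell type marker list (lower rows) in the 4 control (C) and 4 mito-supplemented (M) libraries, as the difference from the mean of the 8 libraries. Red-cell, leukocyte and platelet markers are high in control replicates 2 and 3 and mito-supplemented replicate 1, and surface epithelium markers in all 4 mito-supplemented libraries and control replicate 4.

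The remaining marker lists were set beside the members. Red-cell markers, of which 6 of 7 were in the table, summed to 3618, 2404 and 4535 CPM in the 3 libraries high in Slc4a1, their most abundant gene, and to 73.1 CPM or less in the others. Macrophage and leukocyte markers, led by the lysozyme gene Lyz2, summed to 133.7, 113.6 and 725.7 CPM in the 3 libraries high in Slc4a1 and to 33.0 CPM or less in the others. Endothelial markers, led by Kdr, summed to 25.7, 27.8, 42.9 and 212.2 CPM in controls and to 94.9, 225.7, 179.6 and 200.7 CPM in mito-supplemented samples, with control replicate 4 again high for its group. Among all marker genes the likelihood ratio test called Upk1b, of 10 surface epithelium genes tested, and Esam, of 6 endothelial genes tested, beside 0.418% of all genes. Both were named after their values were seen, and they were called in 17 and 10 of 17 alternatives. Of the genes tested, log2 fold changes were above 0 for 9 of 9 in stroma, 7 of 8 in granulosa, 5 of 6 in endothelium, 5 of 6 in smooth muscle and pericytes, 5 of 5 in leukocytes, 5 of 5 in mast cells, 0 of 3 in red cells and 0 of 1 in platelets. The oocyte list had 0 of 9 above 0 and a median of -1.80, with a sum of 1576 CPM in control replicate 1 and between 51.0 and 283.5 CPM in the other 7 libraries. Over all genes tested, 44.9% lay above 0. The part of these cell types in the differences of the members was not tested.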

How the data were processed

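RNA-Seq counts of primordial follicles from 4 control and 4 mito-supplemented samples were used. The authors trimmed the reads with Trim Galore 0.4.4, mapped them to mm10 with STAR 2.5.3a and summarised them on exons with featureCounts, and the deposited values are raw counts per gene. The annotation release, strand setting and handling of multiply mapped reads are not given in the sources used here. A control library that the authors had excluded was not analysed here. Groups were taken from the sample labels, on which all directions rest. The sources used here may not agree on which group is the mito-supplemented one, and a swap of the 2 groups would reverse every direction.

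The counts were fitted with edgeR 4.0.16 in R 4.3.3 (TMM, default expression filter, quasi-likelihood test, Benjamini-Hochberg adjustment over all genes). The likelihood ratio test, DESeq2 1.42.0 and limma 3.58.1, other scalings, filters and sample sets were alternatives. Standard errors were derived from the fold change and the F statistic. CPM values use TMM library sizes, log2 CPM adds a prior count of 2, and 0.1 was added to CPM per kb before logarithms in the neighbour tests. Total counts ranged from 10370045 to 19760763. Gene positions and exon lengths came from GENCODE M21, and start windows from RefSeq. The genes and lists were chosen with earlier results of these data known. Named genes were the 10 members, for each pathway list the called genes, the most abundant by mean CPM and the extremes of the fold change, the 5 genes closest to Ptgs2 by each correlation, and for each marker list the most abundant gene and those at 0. Of the listed genes 152 were matched by name and 4 through an older symbol, and 1, Hbb-bt, was not matched. The procedure was tested on simulated counts.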

Additional observations from a re-analysis of the deposited data

Results flagged for a closer look

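Among 42 groups of 4 libraries examined for a library far from the rest, 3 stood out, where chance gives about 2.1. Hpgd in control replicate 4 was at 3.43 log2 CPM, while the other 3 controls lay between 0.48 and 0.78. Ptgfr in control replicate 3 was at 0.88 log2 CPM, while the other 3 controls had 0 counts. The macrophage and leukocyte markers of mito-supplemented replicate 1 reached 9.51 as log2 of their summed CPM plus 1, and the other mito-supplemented libraries lay between 4.18 and 5.09.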

How the results depend on the processing

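The quasi-likelihood test called 0 genes in all of its own alternatives, whereas 58 were called by the likelihood ratio test, 141 by DESeq2 and 2578 by limma-voom (1438 higher, 1140 lower). The likelihood ratio count was 210 with library size as the only scaling. With 1 library left out it lay from 13 (mito-supplemented replicate 2 omitted) to 387 (mito-supplemented replicate 1 omitted, 229 higher and 158 lower). It was 175 (108 higher, 67 lower) without the 3 libraries high in Slc4a1, a setting chosen after seeing the data. It was also outside 1.5 times the main count without control replicates 2 (22) and 4 (331) and mito-supplemented replicate 4 (26). The cause was not tested.

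The log2 fold change of Ptgs2 was above 0 in all 20 alternatives and passed both thresholds by the likelihood ratio test (4.45), DESeq2 (4.44) and limma-voom (3.43). In the likelihood ratio test its adjusted p (edgeR) was under 0.05 in 10 of 17 alternatives and ran from 0.0036 to 0.25, with 0.058 under the filter of 1 count in any sample. Ptgs1 (-0.20), Ptgis (0.40) and Ptger4 (-3.89) turned under limma-voom, Ptges3 (0.096) with library size only, and Ptges2 (-0.29) without the 3 libraries high in Slc4a1. With 1 library left out Ptges2 ran from -0.24 to 0.59, Ptgis from -1.37 to 0.46 and Ptger4 from -2.13 to 1.18. Ptger2 could be fitted only under some settings (0.66 under the filter of 1 count in any sample). Ptgfr was not tested without control replicate 3, without mito-supplemented replicate 3 or at 1 CPM in 4 samples.

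Replicate numbers were not used as pairs in the main fit. Same-numbered libraries had correlations of their deviations of -0.24, -0.19, -0.33 and 0.22. As libraries also differ in depth and cell makeup, these values cannot decide whether same-numbered samples shared a batch. With a replicate block 0 genes were called by the quasi-likelihood test and 74 by the likelihood ratio test, Ptgs2 was at 4.94 and not among the 74 (edgeR likelihood ratio test, adjusted p = 0.093), and Ptger4 was at -1.67. With counts summed over samples that share a code prefix, 2 sums a group, the likelihood ratio test called 40 genes, Ptgs2 among them (5.13, edgeR, adjusted p = 0.017), and not Esam (edgeR, adjusted p = 0.34). In control replicate 4, where 3 counts correspond to 0.592 CPM, members at lower levels could be missed.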

Other observations

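Tbxa2r, the thromboxane receptor, was too low to test but averaged 0.068 ± 0.081 CPM in control and 0.993 ± 0.419 CPM in mito-supplemented libraries (SD, n = 4 each). Ereg, an epidermal growth factor family ligand, was likewise untested, at 0.020 ± 0.040 and 2.10 ± 3.04 CPM (SD, n = 4 each), with 6.62 CPM in mito-supplemented replicate 3 and 0.90 CPM or less in the other libraries. Alox15, Il6 and Alox8, also untested, had higher means in control, each through 1 or 2 libraries. The lipoxygenase gene Alox15 was at 2.77 and 1.14 CPM and the cytokine gene Il6 at 3.09 and 2.00 CPM in control replicates 2 and 3, which are high in Slc4a1, and both had 0 counts in the other 2 controls. Alox8 was at 5.0 CPM in control replicate 1 and at 0.555 CPM or less in all other libraries. All 5 genes were named after their values were seen.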
